A study of Mus musculus with 6 samples.

Results

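Among the small RNAs sequenced from epididymal white adipose tissue (WAT), 4 miRNA genes that inflammatory signals are known to induce were followed here, namely miR-21, miR-146a, miR-146b and miR-155. They were taken by name from the deposited table, in every arm listed, which gave 8 rows of the 1983 in the table. Of these 8 rows, 3 were above the floor of the table in at least 3 of the 6 libraries, and these were miR-21-5p, miR-146a-5p and miR-146b-5p. The other 5 rows, miR-21-3p, miR-146a-3p, miR-146b-3p, miR-155-5p and miR-155-3p, were at the floor in all 6 libraries. The floor is the lowest value in the table, 10 reads per 10000000 reads of a library, or 3.32 on the log2 scale of the deposited values.

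The libraries came from male C57BL6/J mice, 3 of them wild type (Wt) and 3 transgenic for angiotensinogen (Agt Tg), with 1 library per mouse. Angiotensinogen is the precursor protein of the renin–angiotensin system, and the aP2 promoter that drives the transgene in adipose tissue is also active in macrophages. Age is not given in the sources used here, and the diet is called chow in the sample labels and low fat in the methods of the study. The comparison asks which miRNAs differ in WAT when the renin–angiotensin system is overexpressed there, and the angiotensinogen mRNA itself is not measured by small RNA libraries.

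Library totals were inferred from the deposited values, as described below. They lay between 6387766 and 10562634 reads, so that the floor was worth between 6.39 and 10.6 reads. Of the 5 adipocyte miRNAs on a marker list, 4 were above the floor in all 6 libraries, and miR-193b-3p was at the floor in all of them. The rows carry human names, and whether mouse reads could be counted under them was not tested for any row at the floor. Wt replicate 2 stood apart from the rest through epithelial miRNAs. The 9 tested members of an epithelial list summed to 141800 reads per 10000000 in Wt replicate 2, and to between 1289 and 2084 in the other 5 libraries. The differences of the members and of their ratios are therefore also given without Wt replicate 2.

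miRNAs repress mRNAs that hold a match to their seed, which is bases 2 to 8 of the mature miRNA. In macrophages and other cells, toll-like receptor and NF-κB signalling induces miR-146a and miR-155. miR-146a and miR-146b damp that signalling by targeting the adaptor Traf6 and the kinase Irak1, whereas miR-155 targets the inhibitor Socs1 and favours inflammation. miR-21 is abundant in most tissues, is induced by inflammatory and growth signals, and targets Pdcd4, a protein that restrains translation. In obese adipose tissue these miRNAs are studied both in adipocytes and in infiltrating macrophages.

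The mature sequences of the mouse miRNAs are shown because the seed groups the members and because the table carries human names only. They were taken from RefSeq for GRCm38.p6, which held all 8 arms. Each is written 5′ to 3′ with the seed in capitals, and the 3 arms above the floor come before the 5 at the floor.
miR-21-5p: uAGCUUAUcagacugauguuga
miR-146a-5p: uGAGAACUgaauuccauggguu
miR-146b-5p: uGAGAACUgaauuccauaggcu
miR-21-3p: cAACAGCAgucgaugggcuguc
miR-146a-3p: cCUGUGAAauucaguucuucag
miR-146b-3p: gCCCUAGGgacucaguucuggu
miR-155-5p: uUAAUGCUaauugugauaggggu
miR-155-3p: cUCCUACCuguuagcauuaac

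miR-146a-5p and miR-146b-5p share the seed GAGAACU, and no other mature mouse miRNA of the RefSeq table has it. Their 22 bases are identical at 20 positions. The 2 differences, counted from 1 at the 5′ end with the base of miR-146a-5p before the position, are G18A and U21C, so that only the last part of a read tells them apart. The seed AGCUUAU of miR-21-5p occurs in 2 mature mouse miRNAs of that table, the other being miR-21c. Human miR-590-5p also carries the seed of miR-21-5p, and its row was at the floor in all 6 libraries. The seed of each of the 5 arms at the floor belonged to 1 mature mouse miRNA.

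The 4 genes lie apart in the mouse genome (GRCm38). Mir21a, at chr11:86584067-86584158 on the minus strand, lies in an annotated exon of the protein-coding gene Vmp1 on the same strand. Mir146, which encodes miR-146a, lies at chr11:43374397-43374461 on the minus strand, and GENCODE M21 places no other gene there. Mir146b, at chr19:46342762-46342870 on the plus strand, lies in an intron of Mfsd13a. Mir155, at chr16:84714140-84714204 on the plus strand, lies in an exon of the lincRNA gene Mir155hg.

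Known targets show what these seeds pair with. The match to the seed of miR-21-5p, ATAAGCT, was found 1 time in the longest annotated 3′ UTR of Pdcd4 (717 bases), and 3.28% of all 3′ UTRs within 20% of that length hold it. The match to the shared miR-146 seed, AGTTCTC, was found 2 times in that of Irak1 (1526 bases), where 11.4% of 3′ UTRs of like length hold it, and 4 times in that of Traf6 (4170 bases), where 31.6% hold it. The sites are written 5′ to 3′ on the strand of the mRNA, the match in capitals with its flanks, for Pdcd4, both sites of Irak1 and the 2 sites of Traf6 nearest to the start of the 3′ UTR.
Pdcd4, chr19:53929424-53929446, plus strand: gtgttctgATAAGCTactttcta
Irak1, chrX:74015386-74015408, minus strand: gaggtcaaAGTTCTCatgcttgg
Irak1, chrX:74015370-74015392, minus strand: tgcttggaAGTTCTCatagtgtg
Traf6, chr2:101697951-101697973, plus strand: tggtgttgAGTTCTCatttagtt
Traf6, chr2:101698015-101698037, plus strand: aaggcttaAGTTCTCaagtactc
Each of these sites is followed by an A in the mRNA. These are matches of sequence, and neither binding nor the mRNAs were measured in the libraries.

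miR-21-5p was the most abundant of the members. Ordered by mean level over the 6 libraries it was at rank 18, miR-146b-5p was at rank 81 and miR-146a-5p at rank 132. miR-21-5p took 1.39% ± 0.36 (SD, n = 3) of the reads on listed miRNAs in Wt mice, against 1.21% ± 0.302 (SD, n = 3) with the transgene. The mature forms are of the same length, so that reads per 10000000 can be set side by side without a length term, although ligation and amplification are known to favour some small RNAs over others.

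**Figure D1:**
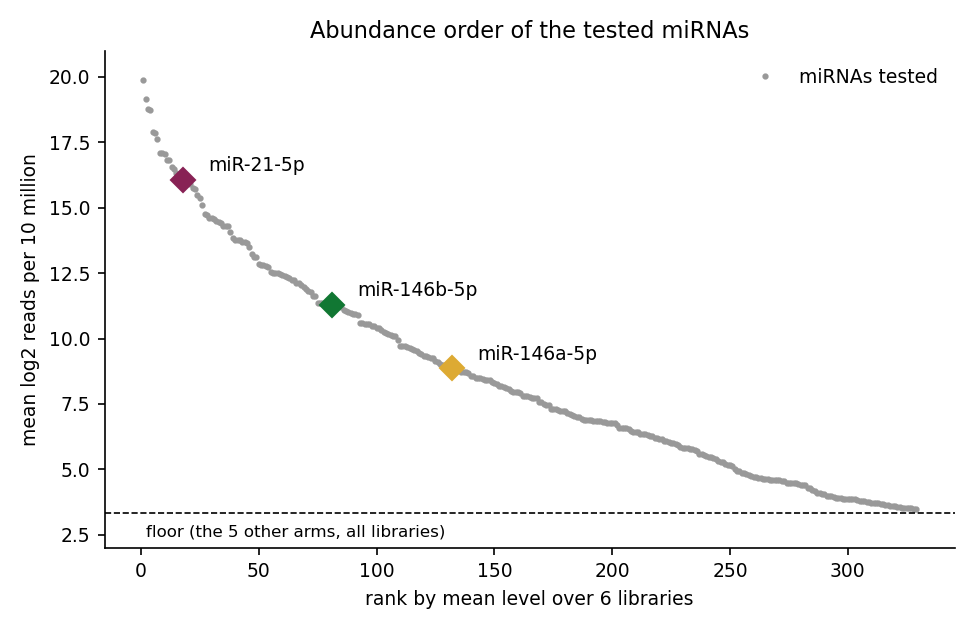
Mean log2 reads per 10000000 over the 6 libraries against rank, for the 329 miRNAs tested (grey), with miR-21-5p, miR-146b-5p and miR-146a-5p as diamonds and the floor as a dashed line. The 3 members sit at ranks 18, 81 and 132, and the 5 other arms lie on the floor.

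The order of the 3 members was the same in each library. The log2 ratio of miR-21-5p to miR-146b-5p lay between 3.64 and 5.94, which is 12.5-fold to 61.4-fold. The log2 ratio of miR-146b-5p to miR-146a-5p lay between 1.79 and 3.05, which is 3.46-fold to 8.26-fold. Neighbours in this order were therefore further apart than the spread within either genotype.

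Reads of miR-21-5p numbered 64334, 69342 and 54616 in the Wt libraries and 76161, 28597 and 80909 in the Agt Tg libraries, in the order of the replicate numbers here and below. As log2 reads per 10000000 these were 16.39, 16.43 and 15.76 in Wt and 16.16, 15.45 and 16.23 in Agt Tg mice. Agt Tg replicate 2 was the lowest library and the groups overlapped, with the other 2 Agt Tg libraries inside the Wt range. Wt mice averaged 16.20 ± 0.38 (SD, n = 3), against 15.95 ± 0.43 (SD, n = 3) for Agt Tg mice. On the log2 scale the difference was −0.25 with a standard error of 0.28 (95% interval −0.92 to 0.42, limma adjusted p = 0.71), so that differences from 0.53-fold to 1.34-fold fit the interval. The exact permutation test gave p = 0.5, two-sided, where 3 mice against 3 cannot go below 0.1. Without Wt replicate 2 the log2 fold change was −0.13, and without Agt Tg replicate 2 it was −0.0011.

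miR-146b-5p, the more abundant of the pair with a shared seed, gave 2423, 1963 and 4377 reads in Wt libraries, and 3666, 990 and 1318 in those of Agt Tg mice. Its log2 levels were 11.66, 11.29 and 12.12 in Wt and 11.79, 10.60 and 10.29 in Agt Tg mice. Agt Tg replicates 2 and 3 were below every Wt library, whereas Agt Tg replicate 1 was within the Wt range, so that the groups overlapped. Wt mice averaged 11.69 ± 0.42 (SD, n = 3) and Agt Tg mice 10.89 ± 0.79 (SD, n = 3), which is a log2 difference of −0.80 with a standard error of 0.42 (95% interval −1.80 to 0.20, limma adjusted p = 0.531). On the linear scale Agt Tg was at 0.574-fold of Wt, with an interval from 0.287-fold to 1.15-fold. The exact permutation test gave p = 0.3, two-sided. Without Wt replicate 2 the log2 fold change was −1.001 (limma, unadjusted p = 0.0709), and without Agt Tg replicate 3 it was −0.50. Without Agt Tg replicate 1 it was −1.25 (standard error 0.30, limma unadjusted p = 0.00638, adjusted p = 0.187), which passed the unadjusted threshold described below.

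The less abundant miR-146a-5p gave 368, 567 and 530 reads in Wt libraries, and 606, 237 and 270 in those of Agt Tg mice. Its log2 levels were 8.94, 9.50 and 9.08 in Wt and 9.19, 8.54 and 7.998 in Agt Tg mice. As for miR-146b-5p, Agt Tg replicates 2 and 3 were below every Wt library and Agt Tg replicate 1 was within the Wt range. Wt mice averaged 9.17 ± 0.29 (SD, n = 3) and Agt Tg mice 8.57 ± 0.60 (SD, n = 3), which is a log2 difference of −0.60 with a standard error of 0.36 (95% interval −1.44 to 0.24, limma adjusted p = 0.553). Agt Tg was at 0.661-fold of Wt, with an interval from 0.369-fold to 1.18-fold, and the exact permutation test gave p = 0.3, two-sided. Without Wt replicate 2 the log2 fold change was −0.43 and without Agt Tg replicate 3 it was −0.31. Without Agt Tg replicate 1 it was −0.91 (limma, unadjusted p = 0.0282, adjusted p = 0.22).

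**Figure D2:**
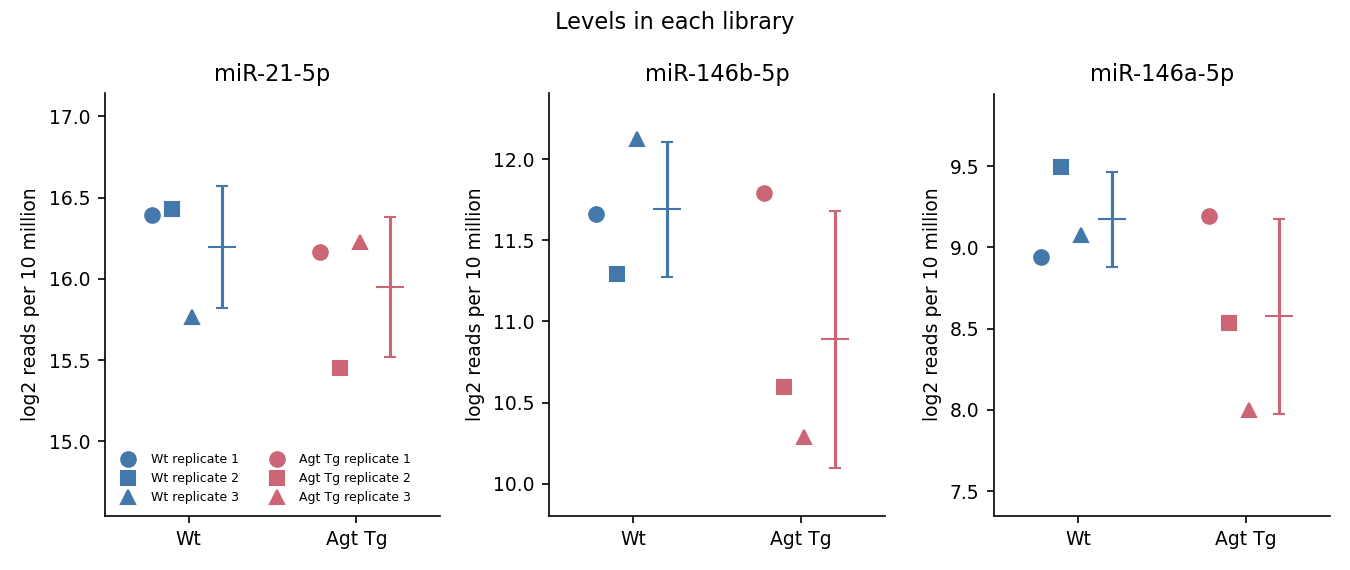
Log2 reads per 10000000 of the 3 members above the floor in each library, by genotype, with bars for the group mean and SD (n = 3) and symbols for the replicate number. Agt Tg replicates 2 and 3 lie below the 3 Wt libraries for miR-146b-5p and miR-146a-5p, and Agt Tg replicate 1 lies among them, whereas the groups overlap more fully for miR-21-5p.

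None of the 3 members passed the threshold between genotypes. The threshold was an unadjusted limma p of at most 0.05 together with a difference of at least 1 on the log2 scale in either direction. Of the 329 miRNAs tested 4.86% passed it, 9 higher and 7 lower (2.13%) in Agt Tg mice. Under TMM scaling the split was 10 higher and 5 lower, and by limma-voom 10 higher and 4 lower. At an unadjusted p of at most 0.05 with no fold threshold the members' count was also 0, where 9.12% of all miRNAs passed. At an adjusted p under 0.05 limma left 0 of the 329, with 30 at an unadjusted p under 0.05, and limma-voom also left 0. Values of all 3 members were lower on average in Agt Tg mice, and so were 67.5% of all miRNAs tested. The median log2 fold change of the 329 was −0.19, or −0.06 under TMM scaling. Relative to the median of −0.19, the log2 fold change was −0.06 for miR-21-5p, −0.41 for miR-146a-5p and −0.61 for miR-146b-5p. Without Agt Tg replicate 1, where miR-146b-5p passed, 10.6% of all miRNAs did so, and 7.60% as lower in Agt Tg mice. Both miR-146 rows had an unadjusted p of at most 0.05 without that library, as did 16.1% of all miRNAs, 11.9% as lower.

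**Figure D3:**
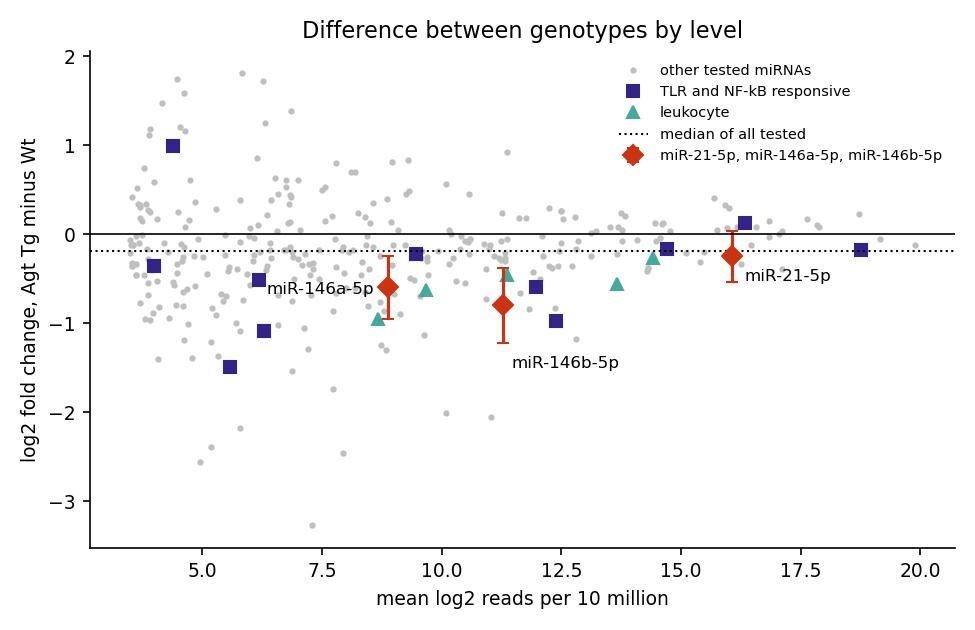
Log2 fold change, Agt Tg minus Wt, against mean log2 reads per 10000000 for the 329 miRNAs tested, with the standard error (limma) drawn for the 3 members and the list members marked. The 3 members lie below 0, at −0.25, −0.60 and −0.80, and the dotted line marks the median of all miRNAs at −0.19.

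The arrangement of libraries seen for both miR-146 rows was counted over all miRNAs, and it was chosen after their values were seen. Agt Tg replicates 2 and 3 were below every Wt library, with Agt Tg replicate 1 inside the Wt range, in 46 of the 329 miRNAs (14.0%). It held for 2 of the 3 members. In the members the spread between replicates was near that of other miRNAs for miR-21-5p (pooled SD 0.404, median of all 0.406) and above it for miR-146a-5p (0.470) and miR-146b-5p (0.633), the last exceeding 79.6% of the miRNAs tested.

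Ratios within a library do not depend on how libraries were scaled, and 3 were compared between genotypes. The log2 ratio of miR-146b-5p to miR-146a-5p was 2.72, 1.79 and 3.05 in Wt and 2.60, 2.06 and 2.29 in Agt Tg replicates 1, 2 and 3. The Agt Tg libraries all lay inside the Wt range. The means were 2.52 ± 0.65 (SD, n = 3) and 2.32 ± 0.27 (SD, n = 3), a difference of −0.20 (exact permutation test, p = 0.7, adjusted over the 3 ratios 0.7). Without Wt replicate 3 the difference was 0.060 and without Wt replicate 2 it was −0.57. The miR-21-5p to miR-146a-5p ratio was highest in Agt Tg replicate 3, at 8.23, with the other 5 libraries between 6.69 and 7.45. It averaged 7.02 ± 0.39 (SD, n = 3) in Wt mice, against 7.37 ± 0.74 (SD, n = 3) with the transgene (exact permutation test, p = 0.6, adjusted 0.7). The difference of 0.35 became −0.080 without Agt Tg replicate 3 and 0.30 without Wt replicate 2. For miR-21-5p to miR-146b-5p the means were 4.50 ± 0.78 (SD, n = 3) and 5.06 ± 0.80 (SD, n = 3), and the groups overlapped (exact permutation test, p = 0.5, adjusted 0.7). That difference of 0.55 was 0.87 without Wt replicate 2, 0.12 without Wt replicate 3 and 0.11 without Agt Tg replicate 3.

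**Figure D4:**
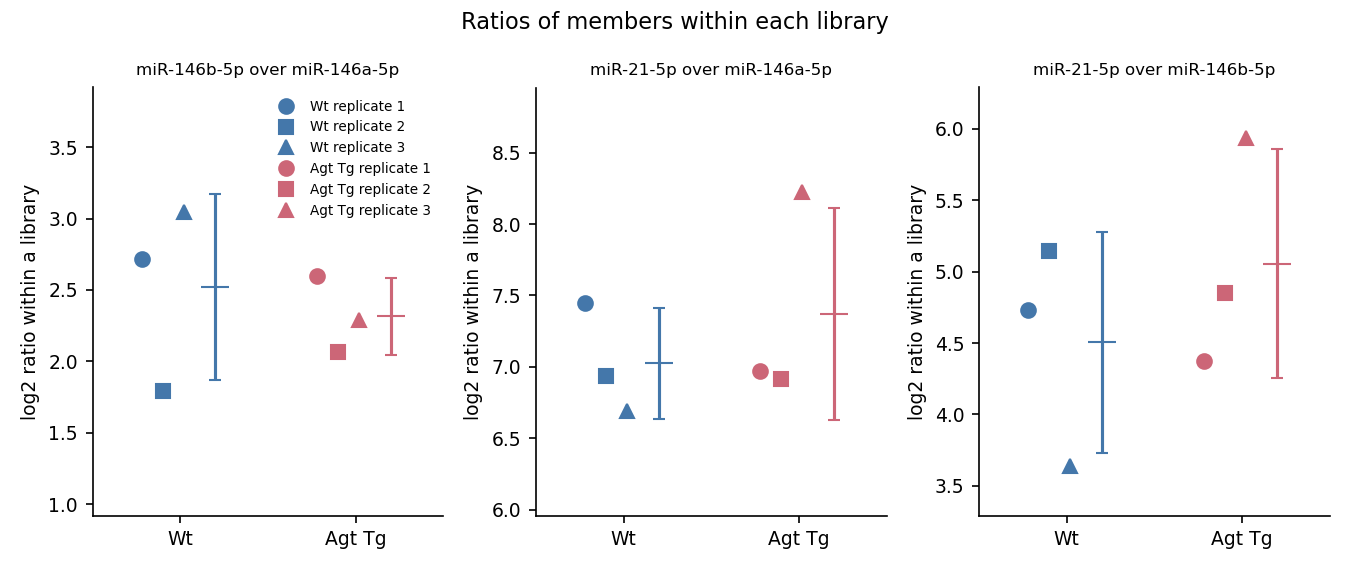
Log2 ratios between members within each library, by genotype, with bars for the group mean and SD (n = 3) and symbols for the replicate number. The genotypes overlap in all 3 ratios, and Agt Tg replicate 3 has the highest ratio of miR-21-5p to either miR-146 row, at 8.23 and 5.94.

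The rows most like each member were found by the root mean square difference of log2 values, each row centred on its own mean over the 6 libraries. For miR-21-5p they were miR-15a-5p (0.117), miR-330-5p (0.137) and miR-20a-5p (0.150), where the median over all other rows was 0.493. For miR-146a-5p they were miR-324-3p (0.176), miR-214-3p (0.188) and miR-652-3p (0.208), with a median of 0.570. For miR-146b-5p they were miR-433 (0.210), miR-142-5p (0.275) and miR-18a-5p (0.281), with a median of 0.682. miR-18a-5p was at the floor in Agt Tg replicates 2 and 3. The miR-146 rows differed from each other by 0.419, so that 47 of the 328 other rows were nearer to miR-146a-5p than miR-146b-5p was. All these rows share the libraries and their scaling, and the order is a description of 6 libraries.

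miR-155 and the 3p arms could not be measured above the floor. A row at the floor stands for at most 6.39 to 10.6 reads in a library, and any lower counts were set to the floor in the deposited values. By background knowledge the mature sequences of these 5 arms differ between mouse and human, while miR-21-5p and miR-146a-5p are the same in both, and the rows carry human names. Human sequences were not used here, and whether mouse reads of these 5 arms could be counted under the human names was not tested. A floor value is therefore not read as absence of mouse miR-155 from WAT. Over the whole table, members included, 63 miRNAs were listed with both arms and with the stronger arm at or above the mean of miR-146b-5p. Of these, 18 (28.6%) had the other arm at the floor in all libraries. At or above the mean of miR-21-5p this was so for 2 of 14 (14.3%), miR-21 being 1 of the 2, and at or above that of miR-146a-5p for 31 of 88 (35.2%).

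Other miRNAs known to respond to toll-like receptor or NF-κB signalling were taken as a list of 14, of which 11 matched a row by name and arm and all 11 were tested. The row of miR-210 is named without an arm and was left out, with a log2 fold change of −0.65. None of the 11 passed the threshold in either direction, where 4.86% of all miRNAs did. Of the 11, 9 had a log2 fold change below 0, as did 67.5% of all miRNAs tested. Their median log2 fold change was −0.36, with −0.19 over all miRNAs tested. The 4 most abundant were miR-10a-5p, a Hox cluster miRNA that restrains NF-κB in endothelium (−0.17), miR-125b-5p, which is lowered by toll-like receptor signals in macrophages (0.13), let-7i-5p, which targets the receptor Tlr4 (−0.17), and miR-222-3p, known from vascular cells (−0.98).

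miR-222-3p had log2 levels of 13.52, 12.43 and 12.71 in Wt and 13.57, 11.11 and 11.03 in Agt Tg replicates 1, 2 and 3. Its Agt Tg replicate 1 was the highest of the 6 libraries and the other Agt Tg libraries were the lowest. miR-31-5p, miR-187-3p and miR-212-3p, named after their values were seen, were the 3 list members with Agt Tg replicates 2 and 3 below every Wt library and Agt Tg replicate 1 inside the Wt range. That arrangement held in 14.0% of all miRNAs tested. Without Agt Tg replicate 1, 4 of the 11 passed the threshold, where 10.6% of all miRNAs did. These were miR-31-5p (−2.25), miR-187-3p (−1.53), miR-222-3p (−1.81) and miR-221-3p (−1.07). Without Wt replicate 2, and also without Agt Tg replicate 2, 1 of the 11 passed, miR-9-5p, which was higher in Agt Tg mice (1.30 and 1.32). In the fits without these libraries 6.99% and 3.95% of all miRNAs passed.

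miR-146a and miR-155 are abundant in immune cells, and a list of 5 leukocyte miRNAs was set beside them. These 5 summed to 45041, 43542 and 45839 reads per 10000000 in Wt replicates 1, 2 and 3, and to 44217, 32835 and 29350 in Agt Tg replicates 1, 2 and 3. The sum was thus lowest in the 2 Agt Tg libraries that were also lowest in miR-146a-5p and miR-146b-5p. The most abundant of the 5, miR-150-5p, did not follow the sum among the Agt Tg libraries. Its log2 levels there were 14.21, 14.37 and 14.28 in replicates 1, 2 and 3. Each of the 5 exceeded the floor in each library, 0 passed the threshold, where 4.86% of all miRNAs did, and their median log2 fold change was −0.56. That median was −0.94 without Agt Tg replicate 1 and −0.30 without Agt Tg replicate 3. Over all miRNAs tested the median was −0.19 on all libraries, and −0.25 and −0.18 without these libraries. The myeloid miRNA miR-223-3p was at 10.12, 9.68 and 10.15 in Wt and 9.82, 9.05 and 9.21 in Agt Tg mice, which differed by −0.63 (log2, limma adjusted p = 0.531). miR-142-5p, found in all blood cell lineages, was at 13.98, 13.93 and 13.95 in Wt and 14.15, 13.14 and 12.88 in Agt Tg mice, and its other arm, miR-142-3p, had a log2 fold change of −0.95. miR-142-3p passed the threshold without Agt Tg replicate 1 (−1.33, limma unadjusted p = 0.0127), where 10.6% of all miRNAs did, and without Wt replicate 3 (−1.23, limma unadjusted p = 0.0355), where 6.69% did. miR-342-3p had −0.46, and the lymphocyte miRNA miR-150-5p had −0.26, with the Agt Tg libraries all below the Wt libraries, as in 10.6% of all miRNAs tested. In tissue, fewer cells of a type and less RNA per cell cannot be told apart, and the part of leukocytes in the values of miR-146a-5p and miR-146b-5p was not tested.

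**Figure D5:**
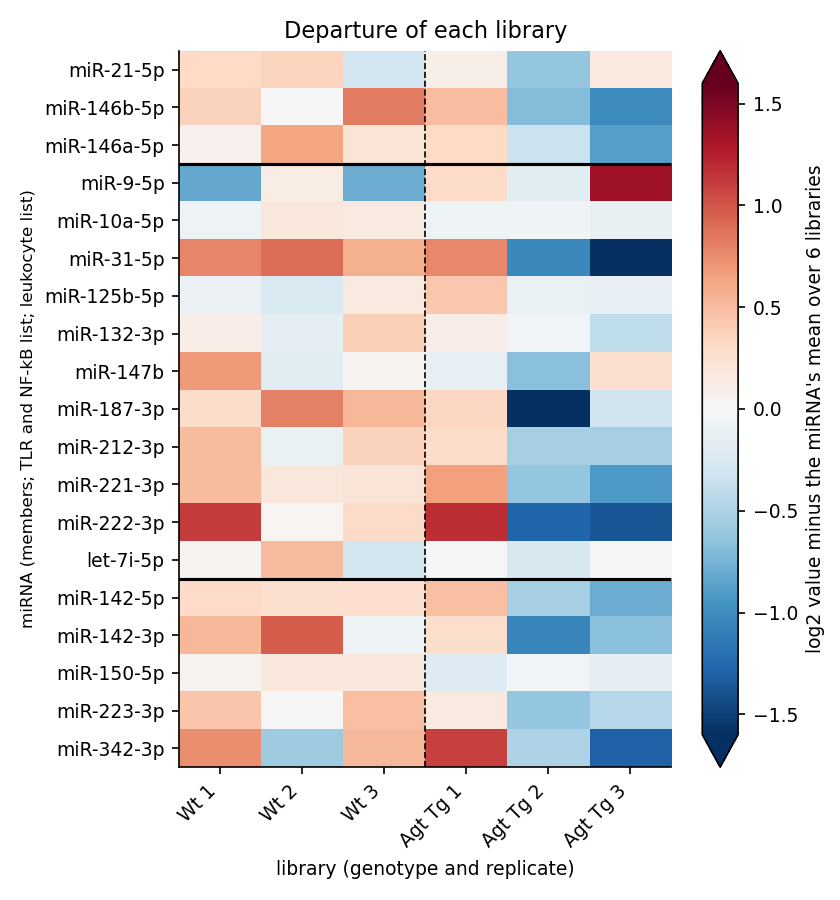
Log2 value minus the mean of the same miRNA over the 6 libraries, in colour (red above, blue below, limits at the ends of the bar), for the 3 members, the 11 toll-like receptor and NF-κB responsive miRNAs and the 5 leukocyte miRNAs, by library. miR-146a-5p, miR-146b-5p and most leukocyte rows are blue in Agt Tg replicates 2 and 3 and red in Agt Tg replicate 1.

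Other marker lists were read in the same libraries. The 4 tested adipocyte miRNAs had a median log2 fold change of −0.02, the 2 endothelial miRNAs, both arms of miR-126, one of 0.23, and the 3 erythroid miRNAs one of 0.29. The endothelial sum lay between 70782 and 87273 reads per 10000000 in Wt and between 77582 and 118270 in Agt Tg mice, and the adipocyte sum between 122710 and 154530 and between 130880 and 181990. The erythroid sum lay between 50577 and 176780 and between 92377 and 207400. Unlike the leukocyte sum, the adipocyte and endothelial sums were highest in Agt Tg replicate 3, the library with the least miR-146a-5p and miR-146b-5p. The erythroid sum was 207400, 110580 and 92377 in Agt Tg replicates 1, 2 and 3, falling in the same order as the leukocyte sum. Over all 6 libraries the erythroid sum was lowest in Wt replicate 2 (50577). Of the epithelial list, miR-429 and miR-96-5p were at the floor in all 6 libraries. Of its 12 members 9 were tested, with a median log2 fold change of −2.17. The 1 member past the threshold was miR-205-5p, lower in Agt Tg mice, where 2.13% of all miRNAs passed as lower. Without Wt replicate 2 the median of these 9 was 0.046, with 4 of them below 0, and miR-205-5p still passed (−1.48), where 6.99% of all miRNAs did. Without Wt replicate 3 miR-200b-3p passed beside miR-205-5p, where 6.69% of all miRNAs passed, and the median of the 9 was −3.29. In Wt replicate 2, where the epithelial miRNAs were highest, miR-146a-5p was the highest of the 6 libraries, miR-21-5p was also the highest and miR-146b-5p was the lowest of the Wt libraries. Its part in these values was not tested beyond the fold changes without that library given above.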

How the data were processed

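The small RNA values of 6 libraries, 3 per genotype, were read from 1 table. The authors checked reads with FastQC, mapped them to the precursors in miRBase, kept those on mature sequences and deposited log2 values. Which miRBase release was used, and how many mismatches were tolerated, is not given in the sources used here. From the values, these are log2 reads scaled to a library of 10000000, where anything under 10 was set to 10. The total of each library was chosen as one that made its values above that floor whole reads. With these totals, 1924 of 1924 such values were whole within 0.02 reads. The read counts given here were computed from the same totals. No pair of replicates differed by as little as sampling noise.

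limma 3.58.1 in R 4.3.3 was run on the 329 rows that exceeded the floor in 3 or more libraries, with a mean-variance trend and a genotype term alone, and Benjamini-Hochberg adjustment over all 329. Intervals are those of limma, at 95%. On simulated data for the 329 rows, with 40 changed 4-fold, 97.6% were recovered and 0.519% of the unchanged were called. Every simulated row was given the median replicate spread (SD 0.406). The 97.6% therefore does not measure the recovery of smaller changes, or of rows with a wider spread such as miR-146b-5p (0.633). Nor does the 0.519% measure false calls among rows with a wider spread. Exact permutation tests were two-sided. Sites and sequences were searched with Python 3.11.15 in GENCODE M21 and RefSeq. Replicates are separate mice.

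The members, the lists of miRNAs and the tests were chosen with earlier results of these data known. Named were all arms of the 4 genes, of the toll-like receptor and NF-κB list those past the threshold and the 4 with the highest mean, the 3 rows most like each member, miR-590-5p and the leukocyte list. Alternatives were log2(value + 1), limma-voom with TMM, TMM scaling, scaling to miR-191-5p, other filters on low values, a block on the replicate number, p alone without a fold threshold, and each library left out. Rows without variance, at the floor in all libraries, could not be fitted, so that no filter means 373 rows.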

Additional observations from a re-analysis of the deposited data

How the results depend on the processing

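The log2 fold changes of miR-21-5p, miR-146a-5p and miR-146b-5p stayed below 0 in all 14 fits, and with each library left out they ran from −0.47 to −0.0011, from −0.91 to −0.31 and from −1.25 to −0.50. The fits with other filters or with the replicate block leave the mean difference of a row unchanged, so they could not alter its direction. The number of members past the threshold was 0 on all values and ran from 0 to 1 when each library was left out, the 1 being miR-146b-5p without Agt Tg replicate 1. Over all miRNAs 16 passed, 3 of 209 with a filter on the mean level, 30 with no fold threshold, and from 12 to 35 when libraries were left out in turn, the highest without Agt Tg replicate 1. Of the toll-like receptor and NF-κB responsive list 0 passed, 1 (miR-31-5p) with the replicate number as a block, and from 0 to 4 when libraries were left out in turn. The cause was not tested.

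The difference in the log2 ratio of miR-146b-5p to miR-146a-5p ran from −0.57 to 0.060 and that of miR-21-5p to miR-146a-5p from −0.080 to 0.58 when libraries were left out in turn. The former was 0.060 without Wt replicate 3 and the latter −0.080 without Agt Tg replicate 3, and the direction was reversed by leaving out no other library. That of miR-21-5p to miR-146b-5p ran from 0.11 to 0.89.

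The replicate numbers did not pair the libraries. Deviations from the group means correlated at 0.219, −0.184 and −0.209 between same-numbered libraries, and not every library correlated best with its own number. With the replicate block 17 miRNAs passed instead of 16, and 0 members.

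Values at the floor, worth up to 10.6 reads, limit what can be said of miR-155 and the 3p arms, and 3 mice per genotype left a 95% interval (limma) of −1.80 to 0.20 for miR-146b-5p.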
